A study of Mus musculus with 8 samples.

Results

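The genes described here are 38 genes of extracellular Wnt signalling: 19 Wnt ligands, 10 Frizzled receptors, 4 secreted Frizzled-related proteins, 4 Dickkopf proteins and Wif1. They were taken by name out of 21887 protein-coding genes of the annotation. H3K27me3, trimethylation of lysine 27 of histone H3, was mapped by chromatin immunoprecipitation and sequencing in 3T3 cells, an established mouse fibroblast line. The NNMT group expressed an NNMT overexpression construct and the control group a control construct, with 3 immunoprecipitated libraries each and 1 input library each. NNMT, nicotinamide N-methyltransferase, spends the methyl donor S-adenosylmethionine on nicotinamide. All groups were kept for 48 h in DMEM without methionine, brought to 10 µM methionine with 10% dialyzed serum, and the labels name no promoter for the construct, no clone and no batch.

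Wnt ligands are secreted, lipid-modified proteins that bind Frizzled receptors together with the co-receptors Lrp5 and Lrp6, which spares beta-catenin from degradation, or signal through Frizzled without beta-catenin. Secreted Frizzled-related proteins and Wif1 bind the ligands outside the cell, and Dkk1 blocks the co-receptors. Many Wnt genes are silent in a given adult cell type, and silent developmental genes often lie under broad domains of H3K27me3, which Polycomb repressive complex 2 deposits.

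The authors' deposited table lists 265968 regions of GRCm38 with 3 values for each of 2 sets of libraries. Its layout does not tie either set to NNMT or control, and the sets are here called set 1 (the 3 values given first) and set 2, so that no direction can be read as an effect of NNMT. Libraries of a set are likewise unnamed; "library 1" below is a position, not a replicate number. The highest p of the table is 0.1, so it holds regions already picked for a difference. A gene without a listed region may therefore carry the mark equally in both sets or lack it. Summed over all listed regions, set 1 is 1.14-fold above set 2, or 0.19 on the log2 scale. Library depth is unknown and the listed values may have been rescaled. The inputs have no values in this table, so DNA dosage and the mark cannot be told apart, nor can fewer cells with the mark and less mark per cell. Of 15 fibroblast marker genes, 13 had no listed region and Col6a2 and Fap had 1 each, where 31.2% of protein-coding genes had at least 1; a table of histone marks does not show expression.

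The listed H3K27me3 differences at these genes lay mostly towards set 1 at the Wnt ligands, with Wnt8b on the other side. Of all protein-coding genes with regions, 69.3% were higher in set 1 by their sums. Antagonist genes with regions went both ways by their sums: Wif1, Sfrp2 and Sfrp5 towards set 1, and Sfrp1, Sfrp4 and Dkk1 towards set 2. Regions were assigned to a gene when they touched its RefSeq span or the 2 kb on either side. By this rule 20 of the 38 genes carried at least 1 region (52.6%, against 31.2% of protein-coding genes). At 17 genes some region was higher in set 1 (44.7%, against 26.5%) and at 10 some region was higher in set 2 (26.3%, against 18%), with 7 genes holding both kinds. The median span was 18.3 kb for the 38 genes and 17.2 kb for protein-coding genes. Listed regions of the 20 genes numbered 248, of which 2 were shared by neighbouring genes, and 213 of them were higher in set 1 (85.9%, against 59.5% of all listed regions). Regions of a gene are neighbours and not independent of each other. Shares over all listed regions, here and below, count regions near genes or not, so they are shares of an unlike set.

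The sets did not overlap in 180 of the 248 regions. All 3 values of set 1 lay above all 3 of set 2 in 160 regions (64.5%, against 40.5% of all listed regions), and the reverse held in 20 (8.06%, against 24.7%). A 2-fold difference, a log2 ratio of at least 1 on summed values with a pseudocount of 1, was reached towards set 1 by 75 regions (30.2%, against 22.3%) and towards set 2 by 4 (1.61%, against 12.9%). Many of the 75 were short regions on low values, such as 50 bp at Wnt6 (74774251 to 74774300) with summed values of 27 against 6. Among regions of at least 2 kb only Wnt3 reached it, at 3600 bp (log2 ratio 1.13) and 3000 bp (1.18). Regions of at least 2 kb made up 20.6% of those at these genes and 7.71% of all listed regions. With 3 libraries against 3, the exact two-sided permutation test cannot give a p below 0.1, which is its value wherever the sets do not overlap. The labels do not say that the libraries came from separate cultures, so the spread within a set may be technical.

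When the values of a gene's regions were summed for each library, 16 of the 20 genes were higher in set 1 and 4 in set 2, the latter being Wnt8b, Sfrp1, Sfrp4 and Dkk1. Of protein-coding genes with regions, 69.3% were higher in set 1. The library sums did not overlap in 15 genes towards set 1 (59.1% of protein-coding genes with regions) and in 4 towards set 2 (22.3%). Those of Sfrp5 tied at 1500, which was counted as overlap. The median log2 ratio was 0.41 over the 20 genes and 0.37 over all 6833 protein-coding genes with regions, so the typical size was close to that of other genes. Rescaling all libraries to equal sums over the table lowered the ratios by about 0.19 and brought Sfrp5 to -0.02, Wnt3a to 0.00 and Wnt7a to 0.03.

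**Figure D1:**
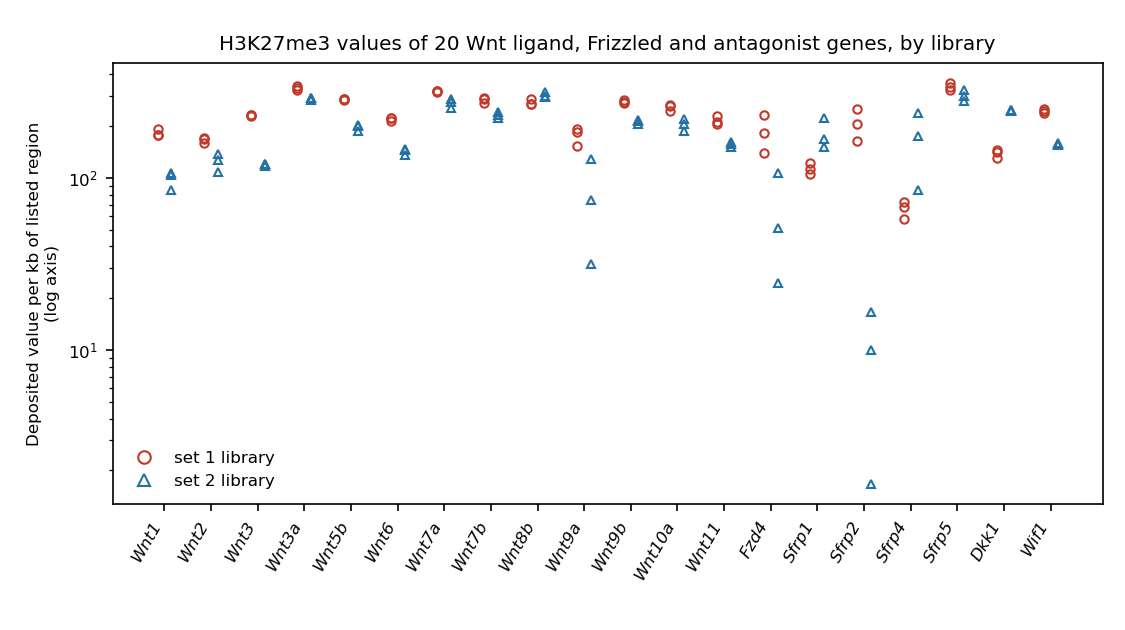
Deposited values summed over the listed regions of each gene and divided by their length in kb (log axis), with red circles for the 3 libraries of set 1 and blue triangles for the 3 of set 2; a sum of 0 is drawn as 0.5 before the division. The sets are apart in all genes but Sfrp5, with set 2 on top in Wnt8b, Sfrp1, Sfrp4 and Dkk1 and the widest gap in Sfrp2.

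Among the ligands, 13 of 19 carried regions, where the share over protein-coding genes was 31.2%. By their sums 12 were higher in set 1 and Wnt8b in set 2. Of protein-coding genes with regions, 69.3% were higher in set 1. The median log2 ratio was 0.42 over the ligand genes with regions, close to the 0.37 over protein-coding genes with regions. Wnt3, a ligand required for gastrulation, and Wnt9b, which acts in kidney tubule formation, lie next to each other on chromosome 11 and point the same way. Wnt3 (chromosome 11, 103774175 to 103818021) carried 27 regions, all higher in set 1 and none with overlapping values. Its sums were 5063, 4987 and 5007 in set 1 against 2610, 2532 and 2604 in set 2, a ratio of 1.94 (1.91 to 2.0 over the 9 pairs of libraries). The libraries of a set differed by far less than the sets did. Wnt9b (chromosome 11, 103727362 to 103775272) carried 17 regions, also all higher in set 1. Its library sums were 10498, 10600 and 10897 in set 1 against 8301, 7910 and 8186 in set 2, a ratio of 1.31 (1.26 to 1.38). The genes share 2 regions. The longer of them (103767801 to 103773800), which ends before the Wnt3 start site, had values of 1680, 1713 and 1759 against 1096, 1093 and 1188 in the authors' deposited table.

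The size of the difference varied along this locus. The genes run in opposite directions, and the annotated span of Wnt9b reaches just past the Wnt3 start site. The Wnt9b start site used here (103749821) lies inside that span. On its far side, towards the gene's end, 4 regions summing 17.6 kb had a ratio of 1.2. That sum leaves out the outermost region of Wnt9b (103721251 to 103727100), past the end of the gene, which had a ratio of 1.4, so the ratios fell towards the Wnt9b start site before they were higher again beyond it. Between the start sites of the neighbours, still within the annotated span of Wnt9b, 11 regions had a ratio of 1.46. From the Wnt3 start site onwards, 26 regions had a ratio of 2.27, with library sums of 3383, 3274 and 3248 in set 1 against 1514, 1439 and 1416 in set 2. The steepest region of Wnt3 was 50 bp long and held low values: at 103799851 to 103799900 it had 10, 10 and 10 against 3, 0 and 0 in the authors' deposited table.

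**Figure D2:**
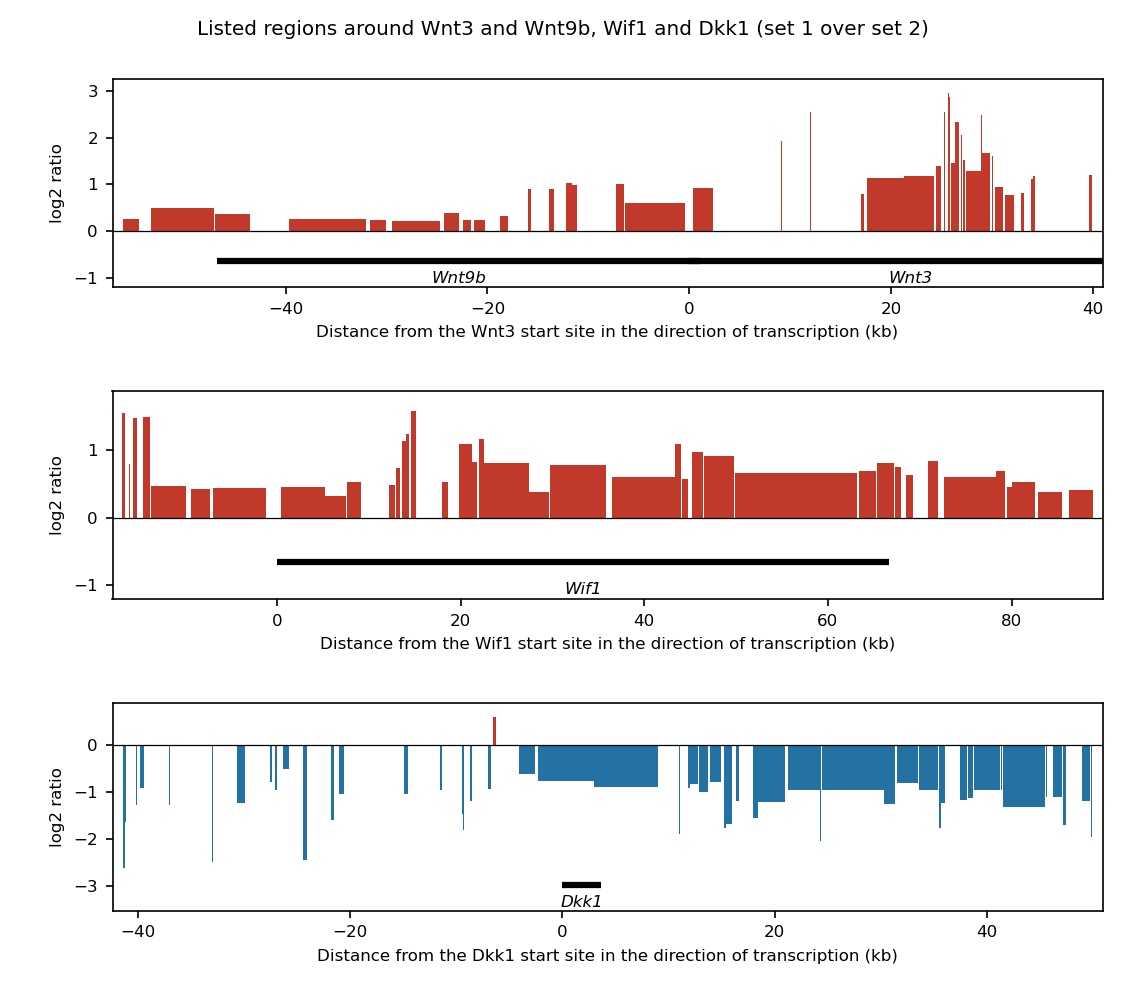
Log2 ratio of set 1 over set 2 for each listed region (bar width equal to region length, red towards set 1, blue towards set 2) against distance in kb from the start sites of Wnt3, Wif1 and Dkk1, with gene spans as black lines. All 44 regions shown at Wnt9b and Wnt3 and all 39 at Wif1 point to set 1, whereas 50 of the 51 at Dkk1 point to set 2.

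A similar pair, Wnt6 and Wnt10a, lies on chromosome 1; both ligands act in epithelial and skin appendage development. Wnt6 (chromosome 1, 74754342 to 74785322) had sums of 4366, 4357 and 4195 in set 1 against 2849, 2870 and 2673 in set 2, a ratio of 1.54 (1.46 to 1.63). Of its 22 regions 21 were higher in set 1. Its strongest single difference was at 74773651 to 74774050, with 78, 106 and 77 against 12, 3 and 6, by the authors' deposited table, for a log2 ratio of 3.57. The longest was at 74780051 to 74783800, with 903, 935 and 878 against 523, 635 and 622 in the authors' deposited table. In Wnt10a (chromosome 1, 74792019 to 74804176) all 6 regions were higher in set 1, and the sums of 2618, 2784 and 2817 against 1999, 2359 and 2188 gave a ratio of 1.26 (1.11 to 1.41). A region in the middle of that gene (74796451 to 74802650) had 1617, 1762 and 1723 against 1267, 1495 and 1437 in the authors' deposited table.

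Wnt5b, a ligand that mostly signals without beta-catenin, carried the most regions. Of 34 regions across its span (chromosome 6, 119432531 to 119544824), 33 were higher in set 1. The sums were 12420, 12423 and 12332 in set 1 against 8650, 8850 and 8158 in set 2, a ratio of 1.45 (1.39 to 1.52), with no overlap. The longest region, 11550 bp at 119448301 to 119459850, had values of 4007, 4067 and 3921 against 3065, 3147 and 2716, by the authors' deposited table, which is 1.34-fold (1.25 to 1.5). The related ligand gene Wnt5a carried none, its nearest listed region lying 441.8 kb away.

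A further 3 ligand genes were almost filled by listed regions but differed little. Wnt7a, which patterns limb and reproductive tract (chromosome 6, 91363981 to 91411353), had 76.2% of its extended span covered and sums of 14650, 14903 and 14913 against 12871, 13425 and 11831, a ratio of 1.17 (1.09 to 1.26). Wnt7b, which acts in lung and vessel development (chromosome 15, 85535437 to 85581821), had 87.1% covered and sums of 12941, 13095 and 12279 against 10040, 10908 and 10359, a ratio of 1.22 (1.13 to 1.3). Wnt3a, the standard activator of the beta-catenin route (chromosome 11, 59248036 to 59290751), had 75.9% covered and sums of 11872, 12210 and 11578 against 10435, 10489 and 10216, a ratio of 1.15 (1.1 to 1.2). Set 1 lay above set 2 in every library of these genes, but single regions went both ways. Of the 17 regions of Wnt3a, 11 were higher in set 1 and 6 in set 2. The region nearest its start site (59290151 to 59290550) was higher in set 2, with 103, 101 and 118 against 68, 63 and 84, while the longest (59275051 to 59281500) was higher in set 1, with 1925, 1978 and 2003 against 1547, 1476 and 1533, both in the authors' deposited table. The region with the largest sum at Wnt7a lay beyond the gene's end (91357251 to 91363250) and had 2472, 2391 and 2512 against 2257, 2291 and 1855 in the authors' deposited table. At Wnt7b it lay within the gene (85541351 to 85547450), with 1887, 1717 and 1737 against 1456, 1376 and 1430 in the authors' deposited table.

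Wnt8b, a forebrain ligand, was the single ligand gene with the opposite sign. Its sums (chromosome 19, 44493472 to 44514273) were 3538, 3793 and 3539 in set 1 against 4182, 3888 and 3965 in set 2, so set 2 was 1.11-fold higher (1.03 to 1.18). The sets were apart by a narrow margin, with 8 of 11 regions higher in set 2. The region at its end (44511701 to 44514800) had 857, 723 and 702 in set 2 against 571, 597 and 612, by the authors' deposited table, which is 1.28-fold (1.15 to 1.5).

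The remaining ligand genes with regions were covered in patches. Wnt1, a midbrain organiser ligand, had 5 regions, all higher in set 1, with sums of 738, 683 and 683 against 402, 326 and 411 (1.85-fold, 1.66 to 2.26). Wnt11, a ligand of cell movements in gastrulation, had 7 regions, all higher in set 1, but a single region without overlap; the sums still stood apart at 1505, 1392 and 1342 against 1057, 1029 and 990 (1.38-fold, 1.27 to 1.52). Wnt2, a lung mesenchyme ligand, had 24 regions over 18.1% of its extended span, 19 higher in set 1 and 5 in set 2. The Wnt2 sums were 1557, 1592 and 1477 against 1176, 1275 and 1009 (1.34-fold, 1.16 to 1.58), and none of its 5 regions towards set 2 was without overlap. Wnt9a, beside Wnt3a, carried 2 short regions with low sums, at 54, 67 and 65 against 26, 45 and 11 (2.27-fold, 1.2 to 6.09); the main one, at 59311001 to 59311300, had 44, 55 and 60 against 24, 43 and 10 in the authors' deposited table. Wnt2b, Wnt4, Wnt5a, Wnt8a, Wnt10b and Wnt16 carried none, with the nearest listed region at 12.5 kb for Wnt4 and 12.7 kb for Wnt10b.

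**Figure D3:**
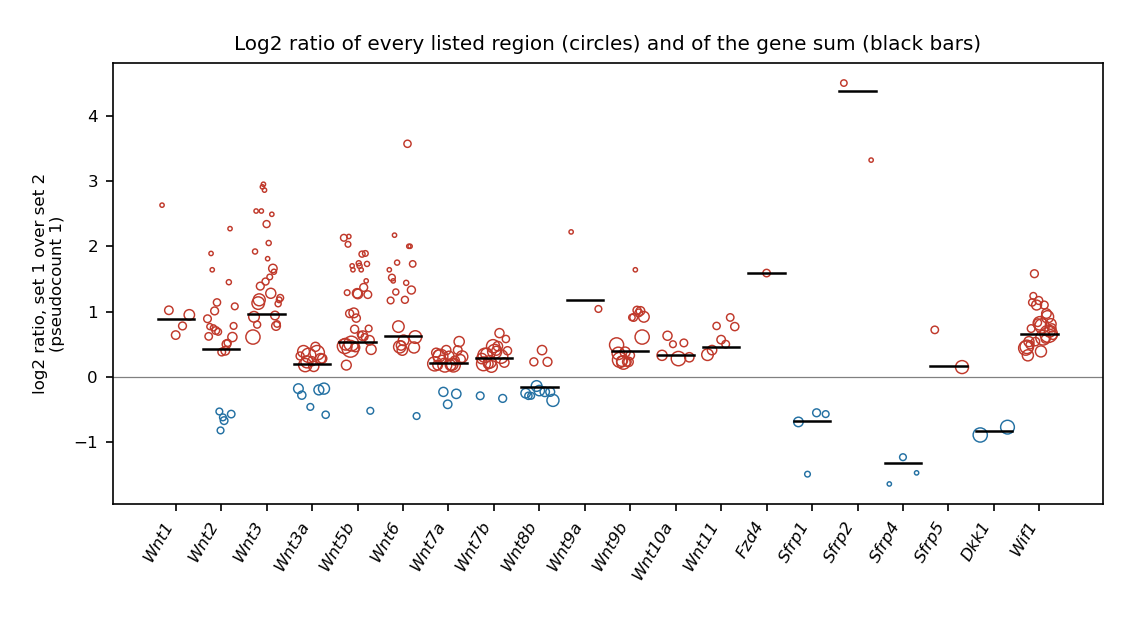
Log2 ratio of set 1 over set 2 for every listed region of the 20 genes (circles, area growing with region length, in order of position within a gene) and for the sum over each gene (black bars). The longest region of Wnt3 has the lowest ratio of that gene, and all regions of Sfrp1, Sfrp4 and Dkk1 lie below 0.

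The Frizzled receptors, the seven-pass membrane receptors of the ligands, were nearly absent from the list. Of 10 genes 9 carried no region: Fzd1, Fzd2, Fzd3, Fzd5, Fzd6, Fzd7, Fzd8, Fzd9 and Fzd10. The median span of the Frizzled genes was 4.59 kb, with Fzd3 at 70.0 kb and Fzd6 at 32.0 kb. The part of gene length in these absences was not tested. Over the 9 genes the nearest listed region lay from 4.09 kb (Fzd3) to 235.2 kb (Fzd10) away, with Fzd9 at 5.85 kb and Fzd7 at 5.95 kb. The absence of Fzd3 thus depends on the 2 kb flank. Of 7925 protein-coding genes under 10 kb, 24.9% carried a region, against 34.8% of longer genes; of the 38 Wnt-related genes it was 6 of 16 under 10 kb and 14 of 22 longer ones. The exception was Fzd4, a receptor that also binds Norrin. Its single region (chromosome 7, 89402551 to 89403000) lay 1366 bp upstream of the start site and read 63, 82 and 104 in set 1 against 11, 23 and 48, by the authors' deposited table, which is 3.04-fold (1.31 to 9.45). All 3 values of set 1 were higher, but the values of set 2 varied widely, and without set 2 library 3 the log2 ratio rose from 1.59 to 2.27.

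The secreted antagonists divided by direction. Wif1, which binds Wnt ligands directly, had 26 regions that covered 82.9% of its span and flanks (chromosome 10, 121034004 to 121100642). Its sums were 15787, 16233 and 15382 in set 1 against 10189, 10124 and 9955 in set 2, a ratio of 1.57 (1.51 to 1.63). All 26 regions were higher in set 1 and 25 had no overlap. The longest, 13350 bp at 121083851 to 121097200, had 3653, 3823 and 3510 against 2430, 2230 and 2303 in the authors' deposited table.

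Dkk1, the Lrp5 and Lrp6 antagonist, stood on the other side. A pair of regions 50 bp apart covered 99.3% of the gene with its flanks (chromosome 19, gene at 30545876 to 30549496). By the authors' deposited table, the one over the start site (30546551 to 30551800) had 1451, 1412 and 1329 in set 2 against 913, 772 and 770, a 1.71-fold difference (1.46 to 1.88). By the authors' deposited table, the other, over the gene's end (30540501 to 30546500) had 1311, 1382 and 1475 in set 2 against 689, 694 and 858. Together they gave 1602, 1466 and 1628 in set 1 against 2762, 2794 and 2804 in set 2, 1.78-fold higher in set 2 (1.7 to 1.91). The other Dickkopf genes, Dkk2, Dkk3 and Dkk4, carried no region.

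The secreted Frizzled-related proteins, which carry a Frizzled-like binding domain, all had regions, but few and in both directions. Sfrp1 had 4 regions, all higher in set 2 and clustered at the low-coordinate end of its span, with sums of 371, 492 and 331 against 268, 247 and 232 in set 1 (1.6-fold, 1.24 to 2.12). Sfrp4 had 3 regions past the end of its span, with sums of 34, 95 and 70 in set 2 against 23, 29 and 27 in set 1 (2.52-fold, 1.17 to 4.13). Its main region (chromosome 13, 19633501 to 19633800) overlapped between the sets, at 20, 75 and 56 against 20, 24 and 20 in the authors' deposited table. Sfrp2 had the steepest ratio of the 38 genes on the lowest values of set 2: a region of 250 bp (chromosome 3, 83767601 to 83767850) had 40, 52 and 65 in set 1 against 5, 0 and 1, by the authors' deposited table. With a second region of 50 bp the sums were 49, 62 and 75 against 5, 0 and 3, a log2 ratio of 4.38, which was 3.44 with a pseudocount of 10 and 5.09 without set 2 library 1. Sfrp5 had 2 regions with sums of 1656, 1579 and 1500 against 1401, 1500 and 1295 (1.13-fold, 1.0 to 1.28), the sets tying at 1500. The main one was chromosome 19, 42197151 to 42201350, with 1551, 1489 and 1437 against 1335, 1461 and 1244 in the authors' deposited table.

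The density of the mark within listed regions differed between genes. Per kb of listed region and library, values averaged 332.0 in set 1 and 289.9 in set 2 at Wnt3a, and 319.1 and 273.6 at Wnt7a. Wnt3 stood at 231.3 and 119.0, and Wif1 at 246.1 and 157.2. At Dkk1 the order was turned, with 139.1 in set 1 and 247.7 in set 2. Wnt3a and Wnt7a thus had the highest density in set 1 among the ligand genes and the lowest ratios of the 12 higher in set 1, a description over selected regions that share libraries.

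The listed regions surrounding a gene often leaned the same way as the gene itself. These counts are to be read against all listed regions, of which 59.5% were higher in set 1. Within 500 kb of Wif1, 168 of 173 other listed regions were higher in set 1, and their summed log2 ratio of 0.65 equalled that of the gene. Around Wnt6 and Wnt10a it was 166 of 173 regions with a log2 ratio of 0.6, against 0.62 for Wnt6 and 0.33 for Wnt10a. Around Dkk1, 273 of 336 regions leaned to set 2 at a log2 ratio of -0.56 (the gene at -0.83), around Sfrp1 375 of 440 with -0.75 (the gene at -0.68), and around Sfrp4 all 90 with -1.03 (the gene at -1.32). Wnt3 exceeded its surroundings, at 0.96 against 0.46. So did Wnt1, at 0.88 against 0.16, and, on low values, Wnt9a at 1.17 against 0.18, Fzd4 at 1.59 against 0.91 and Sfrp2 at 4.38 against 1.16. Wnt7a and Wnt10a were below theirs, Wnt7a at 0.22 against 0.53. Wnt2 and Wnt8b went against theirs: Wnt2 stood at 0.42 among regions at -0.35, of which 58 of 78 were higher in set 2, and Wnt8b at -0.15 among regions at 0.23, of which 176 of 235 were higher in set 1. The part of these surroundings in the genes' differences was not tested.

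**Figure D4:**
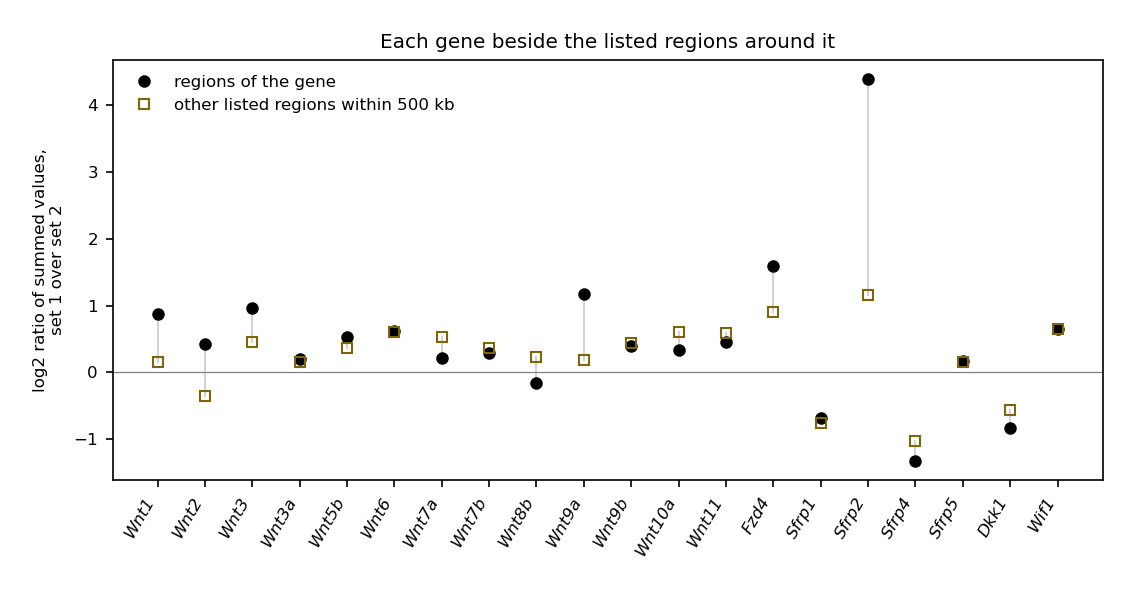
Log2 ratio of summed values, set 1 over set 2, for the regions of each gene (black dots) and for the other listed regions within 500 kb of it (open squares). Gene and surroundings nearly coincide at Wif1, Wnt6 and Sfrp5 and have opposite signs at Wnt2 and Wnt8b.

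Start sites themselves were mostly left out of the listed regions, also at genes with much of their extended span covered, such as Wnt3a, Wnt7a and Wif1. RefSeq promoter windows of the same build, from 250 bp before to 50 bp after a start site, were matched for 26 of the 38 genes, with 29 windows. For 14 genes with a single window and at least 1 region, the start site lay inside a listed region in 1 (7.14%), against 22.6% of 4385 protein-coding genes with a single window and a region. At 1.5 kb downstream 10 of the 14 genes were covered (71.4%, against 31.0%), and at 4 kb upstream 9 were (64.3%, against 31.7%). These are the highest points of a ragged profile over few genes: at 4500 bp upstream the share was 28.6%, against 30.1%, and at 2500 bp downstream 35.7%, against 32.4%. The start sites of Wnt2, Wnt3, Wnt3a, Wnt6, Wnt7a and Wif1 lay 395, 375, 201, 342, 353 and 397 bp from the nearest region.

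**Figure D5:**
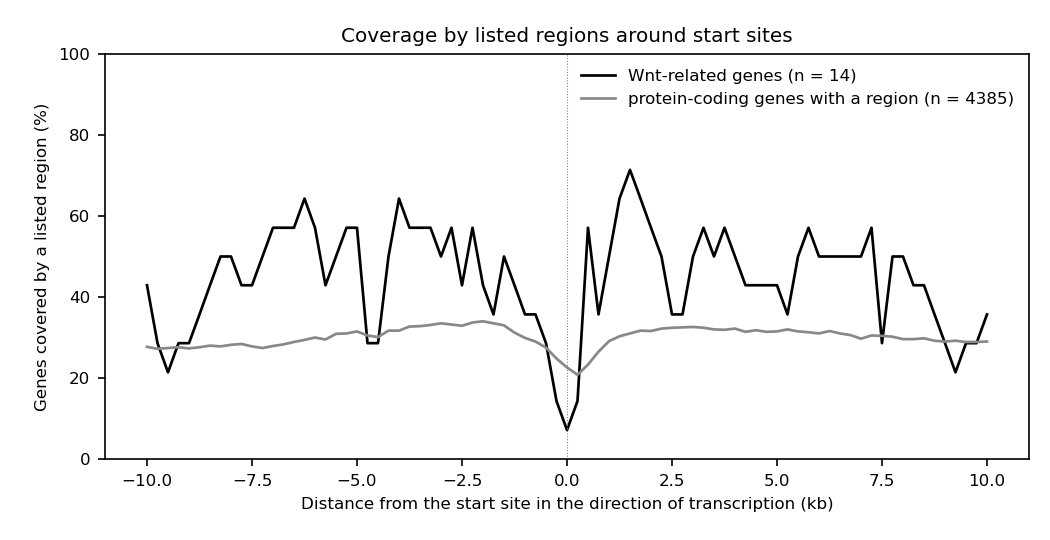
Percentage of genes covered by a listed region against distance in kb from the start site, in steps of 250 bp, for 14 Wnt-related genes with a single annotated window and at least 1 region (black) and for 4385 protein-coding genes chosen the same way (grey). The black line drops to 7.14% at the start site and the grey line to 20.8% at 250 bp past it.

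The windows of these genes were rich in CG dinucleotides, the hallmark of CpG islands, with a median of 26 per 300 bp against 13 over protein-coding windows. Among 19 windows of genes with regions, 3 start sites lay inside a region, and they were poor in CG: the internal start sites of Wnt5b with 4 and 7, and Dkk1 with 9. The other 16 windows held 6 to 58, with a median of 28.0, and the upstream Wnt5b start site, outside all regions, had 47. Over protein-coding genes with regions the same order held: the start site lay inside a region in 31.6% of genes with at most 13 CG and in 6.31% of those with more. The 7.14% of the 14 Wnt-related genes mixes both classes and is not to be read against either share. Its 1 covered start site was that of Dkk1, with 9 CG, whereas that of Wnt8b, with 6 CG, lay outside all regions. These counts describe how the list falls and were compared after the values were seen.

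The 5 windows that touch a listed region are printed here because they show both kinds of sequence, the CG-poor windows of Dkk1 and Wnt5b inside regions and the CG-rich windows of Wnt9b and Wnt11 at the edge of 1. Each runs 5′ to 3′ on the gene's strand (RefSeq, GRCm38.p6), with every CG in capitals.
Dkk1, chr19:30549447-30549746, minus strand: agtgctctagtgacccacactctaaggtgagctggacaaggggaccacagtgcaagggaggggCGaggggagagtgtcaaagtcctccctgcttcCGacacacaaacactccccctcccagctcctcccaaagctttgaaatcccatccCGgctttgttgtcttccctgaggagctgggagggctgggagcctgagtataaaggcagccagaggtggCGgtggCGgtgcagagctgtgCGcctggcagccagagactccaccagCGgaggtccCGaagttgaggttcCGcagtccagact
Wnt5b, chr6:119449337-119449636, minus strand: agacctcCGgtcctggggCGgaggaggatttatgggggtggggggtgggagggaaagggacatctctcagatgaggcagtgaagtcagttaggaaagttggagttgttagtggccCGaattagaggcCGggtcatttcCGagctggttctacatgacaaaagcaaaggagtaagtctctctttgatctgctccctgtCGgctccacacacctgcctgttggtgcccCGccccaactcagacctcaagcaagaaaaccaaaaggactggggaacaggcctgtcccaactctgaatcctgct
Wnt5b, chr6:119467162-119467461, minus strand: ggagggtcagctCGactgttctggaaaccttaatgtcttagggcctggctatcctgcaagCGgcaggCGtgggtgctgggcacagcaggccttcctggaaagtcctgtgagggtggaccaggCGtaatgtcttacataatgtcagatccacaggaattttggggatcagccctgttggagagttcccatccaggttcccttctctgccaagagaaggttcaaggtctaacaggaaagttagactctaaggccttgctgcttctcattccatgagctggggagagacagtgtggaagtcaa
Wnt9b, chr11:103749772-103750071, minus strand: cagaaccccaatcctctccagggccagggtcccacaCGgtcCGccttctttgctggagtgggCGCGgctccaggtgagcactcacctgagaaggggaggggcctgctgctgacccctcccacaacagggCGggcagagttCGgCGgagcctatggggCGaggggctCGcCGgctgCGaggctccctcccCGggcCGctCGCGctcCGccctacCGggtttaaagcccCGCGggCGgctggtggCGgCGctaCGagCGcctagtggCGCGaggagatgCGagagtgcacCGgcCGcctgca
Wnt11, chr7:98834862-98835161, plus strand: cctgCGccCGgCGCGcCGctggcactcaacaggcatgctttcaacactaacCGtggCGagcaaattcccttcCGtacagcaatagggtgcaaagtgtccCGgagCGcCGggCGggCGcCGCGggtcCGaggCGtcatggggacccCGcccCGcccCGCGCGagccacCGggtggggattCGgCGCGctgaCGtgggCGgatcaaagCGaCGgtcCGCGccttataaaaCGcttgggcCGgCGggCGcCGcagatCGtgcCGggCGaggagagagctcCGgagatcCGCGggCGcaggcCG

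The windows hold 9, 7, 4, 29 and 45 CG in this order. The Dkk1 window lay inside the region that was 1.71-fold higher in set 2, and the Wnt5b windows inside regions 1.34-fold and 1.43-fold higher in set 1. The Wnt9b start site lay 80 bp from the nearest region and that of Wnt11 62 bp. The motif CTTTGAT, the core bound by TCF and LEF factors, was searched on both strands and does not overlap the CG marks. It occurred in 2 of the 29 windows, Wnt11 and the downstream Wnt5b window, against 3.22% of protein-coding windows.

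Other genes of the pathway, from 8 lists of 81 symbols of which 80 were matched, carried regions in 35 cases, where the share over all protein-coding genes was 31.2%. Their sums were higher in set 1 in 26, without overlap in 23 (59.1% of protein-coding genes with regions), and in set 2 in 9, without overlap in 6 (22.3%), with a median log2 ratio of 0.6. Of all protein-coding genes with regions, 69.3% were higher in set 1, with a median log2 ratio of 0.37. The directions within the lists are to be read against that 69.3%. Genes of the R-spondin axis, namely ligands, Lgr receptors and ubiquitin ligases that set Frizzled levels at the membrane, carried them in 8 of 9 cases, 6 higher in set 1 and 2 in set 2. Lgr6 had 79 regions, all higher in set 1, with sums of 17461, 18248 and 17662 against 9210, 9466 and 9748 (1.88-fold). Rnf43, which removes Frizzled from the membrane, had 38, with sums of 9799, 9896 and 8773 in set 1 against 10087, 10376 and 9952 in set 2, 1.07-fold higher in set 2. The other extracellular inhibitors carried regions in 7 of 12 cases, 6 higher in set 1, among them Sost (1.19-fold) and Draxin (1.72-fold).

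The intracellular genes are read against the same 31.2%, and their directions against the same 69.3%. Cytoplasmic genes carried regions in 4 of 17 cases, among them Dact2, an inhibitor of Dishevelled (2.23-fold towards set 1), and Cxxc4 (1.65-fold towards set 2). Nuclear effectors carried them in 4 of 12, among them the beta-catenin partner Tcf7 (1.45-fold towards set 1) and Tle4 (1.13-fold towards set 2, overlapping). Ctnnb1, the gene of beta-catenin itself, had no region. Of 11 feedback and target genes 6 carried regions, 2 higher in set 1 and 4 in set 2, with Nkd1 at 1.04-fold towards set 2 (overlapping) and T, the brachyury gene, at 1.24-fold towards set 1. Planar polarity genes carried them in 4 of 9, all higher in set 1 by their sums and 2 of them without overlap; the largest sums were those of Celsr1 (1.08-fold, overlapping) and Celsr2 (1.05-fold, overlapping). Of 7 co-receptors and other receptors Ror1 alone had regions (3.42-fold towards set 1, on low values of 40, 43 and 47 against 17, 12 and 9), and of 3 processing genes Notum, a Wnt deacylase, had them (2.0-fold towards set 1).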

How the data were processed

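Per the labels' protocols, cells were fixed with 1% formaldehyde and chromatin was cut with micrococcal nuclease before immunoprecipitation. The submitters' processing notes name CASAVA, Trimmomatic 0.36, BWA 0.7.17 and the build GRCm38. The region caller, normalization and any input correction are not given in the sources at hand. The values in the authors' deposited table are whole numbers packed with a −log10 p per region; since they may be rescaled, they were not treated as raw counts in any model. Region edges lie on a 50 bp grid and were turned to 1-based positions. Gene spans (RefSeq, GRCm38.p6) were extended by 2 kb. Log2 ratios compare sums after adding a pseudocount of 1; their error is the range over 9 library pairs, since the sets carry no sample names and no mean ± SD is given. A ratio in linear units has no pseudocount. No p was computed over regions that were already selected by p. Depth is unknown.

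Every member is accounted for. Library values are printed at least for the 12 members with the largest sums and those with a log2 ratio of at least 1 in size, and up to 2 genes per pathway list are named by sum. The members and lists were chosen with earlier results of these data known. The overlap and ratio steps were tested on simulated data. Python 3.11.15, numpy 2.4.6, pandas 2.3.3 and matplotlib 3.10.9 were used. Alternatives were the flank (none or 5 kb), a stricter p, a minimum sum of 60, a minimum length of 300 bp, equal library sums, a pseudocount of 10 and leaving out each library.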

Additional observations from a re-analysis of the deposited data

How the results depend on the processing

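Across the alternatives, the direction of the summed ratio held in every setting that gave a value for 19 of the 20 genes with regions. The exception was Sfrp5, at -0.02 with libraries rescaled to equal sums. That setting also left almost no difference at Wnt3a, rounded to 0.00, and at Wnt7a, at 0.03. With the authors' p under 0.01, which leaves fewer regions, 131 member regions leaned to set 1 and 6 to set 2, 4 members carried a region higher in set 2, and the median log2 ratio over members was 0.49. With libraries rescaled, that median was 0.21, regions without overlap went from 180 to 139, and regions higher in set 1 and set 2 went from 213 and 35 to 204 and 44. Leaving out each of the 6 libraries in turn gave a median of 0.36 to 0.43, left 16 members higher in set 1 and 4 in set 2, and gave 194 to 200 regions without overlap, where fewer values need to be apart. Without a flank Fzd4 and Sfrp4 had no region, and with regions of at least 300 bp Sfrp2 had none. With a flank of 5 kb 21 members carried a region, against 20 in the main setting. Shares over all listed regions or protein-coding genes were computed in the main setting alone. The counts of the alternatives therefore have no share beside them and are not to be read as particular to these genes. No paired analysis was possible because the values carry no replicate numbers. Depth is unknown, so the precision of low values, as at Sfrp2, Sfrp4, Wnt9a and Fzd4, rests on the spread of 3 libraries.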

Other observations

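Cdx1, a caudal homeobox gene listed among the Wnt targets, was singled out after its values were seen. It carried 26 regions, all higher in set 1, with library sums of 1464, 1381 and 1431 in set 1 against 214, 216 and 181 in set 2, a ratio of 7.0 (6.39 to 8.09 over library pairs). Its relative Cdx2 carried 5 regions with sums of 1872, 1897 and 1965 in set 1 against 2312, 1985 and 2166 in set 2, 1.13-fold higher in set 2 (1.01 to 1.24). Cer1, a secreted inhibitor of Wnt, Nodal and BMP ligands, stood at 1325, 1347 and 1102 against 508, 488 and 507, a ratio of 2.51, and Rspo1 at 5121, 4850 and 4418 against 2204, 2198 and 2219, a ratio of 2.17. Both were also picked by their values.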
